A study of Macaca mulatta with 18 samples.

Results

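The genes described here encode the contractile proteins of slow (type I) muscle fibres and the calcium pump and Z-disc protein that go with them: MYH7, MYL2, MYL3, TNNC1, TNNI1, TNNT1, TPM3, ATP2A2, MYOZ2 and MYH7B. Members were taken as every probe of the array whose annotated symbol is 1 of these 10 genes, which gave 9 of the 20046 genes named on the array, read by 12 of its 47323 probes. TPM3 was not analysed here. The probes were measured in vastus lateralis biopsies of 18 male rhesus monkeys (Macaca mulatta), with 1 array per animal and 6 animals at each age. Young animals were 6.00 ± 0.00 years old, middle-aged animals 16.48 ± 0.31 years and old animals 26.83 ± 0.22 years (SEM, n = 6 each). All animals received standard chow at estimated ad libitum levels, and no group carried a treatment or a genetic change. The ages are different animals sampled once, and the array, Sentrix Human HT-12, carries probes designed for human transcripts, so a low intensity can come from a low transcript level or from a poor match to the monkey sequence.

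Skeletal muscle is a mosaic of fibre types that differ in the isoform of nearly every contractile protein. Slow fibres use the beta myosin heavy chain encoded by MYH7, a motor that hydrolyses ATP slowly and resists fatigue, whereas fast fibres use the heavy chains of MYH2 and MYH1. The motor neuron that drives a fibre largely sets which set of isoforms it makes, and the vastus lateralis, a thigh muscle, holds both kinds. MYH7, MYL2, MYL3, TNNC1 and ATP2A2 are also the forms used by the ventricle of the heart.

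Of the 12 probes, 10 probes of 8 genes were detected (detection p under 0.05, from GenomeStudio's negative controls) on at least 6 arrays and entered the tests. The probe of MYH7B, a relative of the slow myosin, was detected on 0 of 18 arrays, with intensities of 52 to 72. The third probe of ATP2A2 was detected on 4 arrays, with intensities of 72 to 116, and was left out of the tests. MYOZ2 was detected on 12 arrays and TNNI1 on 13, with 4 to 5 animals detected at each age. The other probes of MYH7, MYL2, MYL3, TNNC1, TNNT1 and ATP2A2 were detected on all 18 arrays.

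Median intensity of the arrays was 71 to 97, and 24.5% to 30.5% of the probes were detected. The middle-aged arrays had a smaller SD of log2 intensity (mean 1.14) than young (1.21) and old arrays (1.21), and middle-aged replicate 6 had the smallest SD of all, 1.03. Since each array was centred and divided by its own SD (a Z score, here multiplied by 1.19 so that differences read in log2 units), values on this scale are stretched for the middle-aged animals. Skeletal muscle markers (ACTA1, CKM, DES, TTN, NEB and MYOT) were detected on all 18 arrays, while of 5 cardiac markers measured NPPB, TNNI3 and MYL7 were detected on 0 arrays. The atrial peptide NPPA was detected on 13 arrays, with intensities of up to 538, and the cardiac alpha myosin MYH6, the nearest relative of MYH7, on 17. MYH6 had intensities of 94 to 159 and a Pearson r with MYH7 of -0.08, given without a test. TNNT2 and MYBPC3 were not analysed here. Batch, slide and scan are not given in the sources used here.

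Within each age the animals differed widely in slow fibre transcripts, and the ages overlapped. MYH7, the motor of slow fibres, had a lowest, median and highest intensity of 1998, 7916 and 19543 in young muscle. In middle-aged muscle these values were 648, 9165.5 and 20263, and in old muscle 1158, 6709.5 and 15808. The highest animal was at 9.78 times the lowest among young, 31.3 times among middle-aged and 13.7 times among old animals, and the ranges of the 3 ages overlapped over most of their length. Young replicates 2, 3 and 6 stood at 3769, 1998 and 2728, below replicates 1, 4 and 5 at 12063, 19543 and 17402. Middle-aged replicates 1 and 4 stood at 764 and 648, and the other middle-aged animals at 7635 to 20263. Among the old animals replicate 6 stood at 1158, replicate 5 at 15808 and the other animals at 5131 to 9005.

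**Figure D1:**
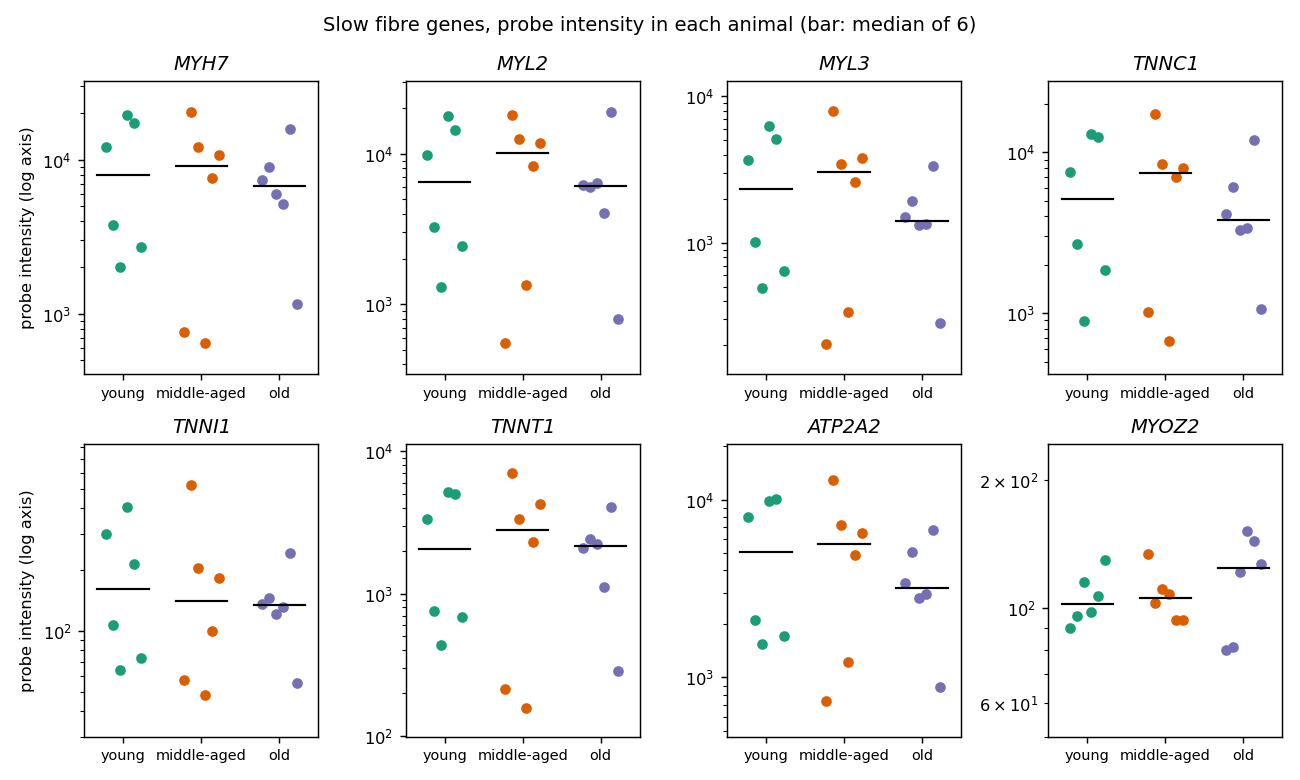
Probe intensity (log axis) of the 8 tested slow fibre genes in each of the 18 animals, with a bar at the median of the 6 animals of each age. The points of the 3 ages overlap in every panel, and MYH7 spans 648 to 20263 while MYOZ2 spans 80 to 152.

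The light chains of the slow motor showed the same breadth. MYL2, the regulatory light chain, had a lowest, median and highest intensity of 1302, 6513.5 and 17713 in young muscle, 550, 10042.5 and 18001 in middle-aged muscle, and 799, 6088.5 and 18958 in old muscle. MYL3, the essential light chain, stood at 489, 2338.5 and 6250 in young muscle, 203, 3040 and 7961 in middle-aged muscle, and 285, 1414 and 3369 in old muscle. The ranges overlapped for both genes, and the old animals lacked the high MYL3 intensities that 3 young and 3 middle-aged animals reached. Both tested MYL2 probes gave the same pattern over the 18 animals (r = 0.997 between them, a description of probes that share a transcript and an array).

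The thin filament switch of slow fibres followed. TNNC1, the calcium-binding subunit of slow troponin, had a lowest, median and highest intensity of 887, 5108 and 13003 in young, 668, 7478.5 and 17324 in middle-aged and 1063, 3770 and 11892 in old muscle. TNNT1, the slow subunit that binds tropomyosin, stood at 436, 2062 and 5163 in young, 158, 2812.5 and 7044 in middle-aged and 286, 2150 and 4080 in old muscle. For both genes the ages overlapped, and the lowest and the highest animal of all 18 were both middle-aged. TNNI1, the slow inhibitory subunit, was dimmer on this array, at 64, 160 and 405 in young, 48, 140.5 and 521 in middle-aged and 55, 133.5 and 240 in old muscle, and its lowest animals were not detected.

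ATP2A2 encodes SERCA2, the pump that returns calcium to the sarcoplasmic reticulum of slow fibres. Its lowest, median and highest intensity was 1545, 5047.5 and 10066 in young, 741, 5659 and 12874 in middle-aged and 888, 3168 and 6702 in old muscle. Of the 18 animals, the lowest (replicate 1) and the highest (replicate 2) were again middle-aged, and the old median was the lowest of the 3 medians with overlapping ranges. Its second tested probe had an r of 0.993 with the first. MYOZ2, a Z-disc protein (calsarcin-1) that binds calcineurin, was dim on every array and was not detected on 6, at 90, 102.5 and 130 in young, 94, 105.5 and 134 in middle-aged and 80, 124.5 and 152 in old muscle. The old animals held both its lowest and its highest values.

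Over the 18 animals the highest intensity was 44.6 times the lowest for TNNT1, 39.2 times for MYL3, 34.5 times for MYL2, 31.3 times for MYH7, 25.9 times for TNNC1 and 17.4 times for ATP2A2. No ratio is given for TNNI1 and MYOZ2, whose lowest values, 48 and 80, were not detected. For the 9 fast counterparts (MYH2, MYH1, MYL1, TNNC2, TNNI2, TNNT3, TPM1, ATP2A1 and MYOZ1) the same ratio was 1.83 to 6.26. These fast probes were bright: MYL1 was the brightest probe of the whole array in 9 animals and TPM1 in 2, and MYL1, TNNC2, TNNI2, TNNT3, TPM1 and MYOZ1 were at 50.1% or more of the array's highest intensity in all 18. Whether their narrower range came from an upper limit of the readout was not tested. MYH4, a fast heavy chain outside these 9, spanned 270 to 18232, a ratio of 67.5.

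On the log2 scale, the SD between animals of the same age had a median of 0.203 over the 14188 detected probes. TNNT1 ranked 1 among them, with an SD of 1.92. The MYL2 probes ranked 2 and 4 (1.87 and 1.82), MYH7 ranked 5 (1.79), MYL3 6 (1.78), TNNC1 9 (1.66) and the ATP2A2 probes 15 and 17 (1.44 and 1.42). Thus 8 of the 20 probes with the highest SD were slow fibre probes. TNNI1 ranked 44 (1.10) and MYOZ2 8013 (0.19), both with some animals at background. The fast counterparts had SDs of 0.258 to 0.561. For MYH7 the SD was 1.51 in young, 2.44 in middle-aged and 1.16 in old animals, and the difference between these SDs was not tested.

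**Figure D2:**
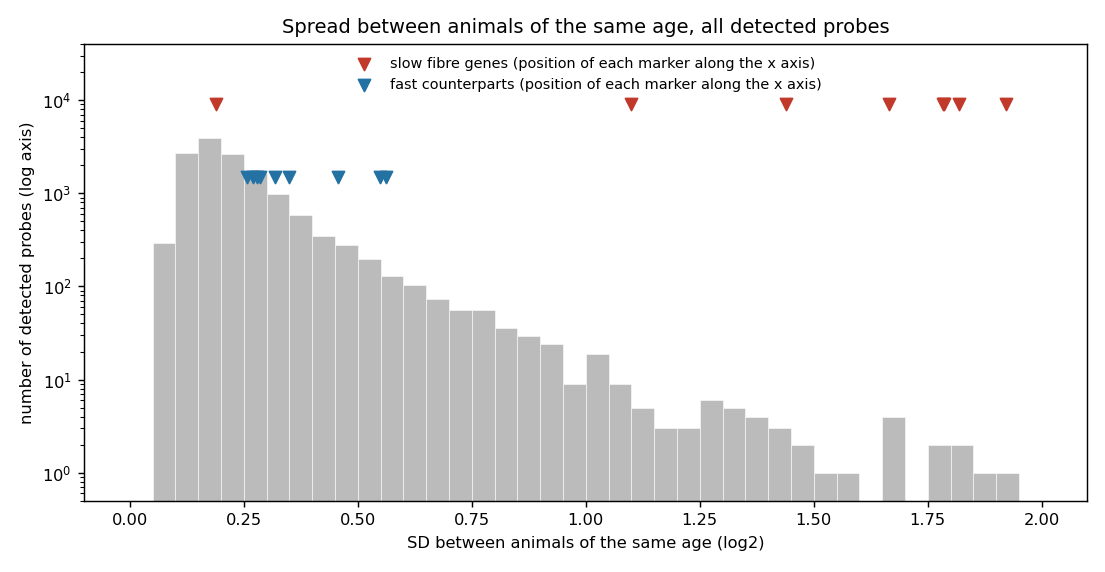
Histogram of the SD between animals of the same age (x axis, log2 units) over the 14188 detected probes (y axis, number of probes, log axis), with triangles at the SDs of the 8 slow fibre genes and of 9 fast counterparts, the brightest probe of each. Of the slow genes 7 lie at 1.10 to 1.92 and MYOZ2 at 0.19, while these 9 fast genes lie at 0.258 to 0.561.

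The 3 ages were compared in 1 limma fit over the 14188 probes with Benjamini-Hochberg adjustment, which asks whether slow fibre transcripts changed with age. No slow fibre probe was called in any comparison (adjusted p under 0.05). In old against young muscle 0 of the 10 probes were called, against 0.0987% of all probes, and 0 had an unadjusted p under 0.05, against 10.9% of all probes. In old against middle-aged muscle both counts were 0, against 0.803% and 17.4% of all probes, and in middle-aged against young muscle both were 0, against 0.0211% and 10.3%. By the F-test over the 3 ages 0 of the 10 were called, against 0.395% of all probes, with unadjusted p-values of 0.562 to 0.955. Standard errors in old against young muscle were 0.55 to 0.97 for the probes other than MYOZ2 (0.11), against a median of 0.12 over all probes. The probes other than MYOZ2 also move together. These counts therefore cannot show that slow fibre transcripts changed less with age than others. In such whole-tissue RNA, fewer slow fibres and less slow transcript per fibre cannot be told apart.

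In old against young muscle, 9 of the 10 log2 fold changes were below 0, from -0.58 to 0.07 with a median of -0.32, beside a median of -0.0037 over all probes. MYH7 differed by -0.30 ± 0.90 (SE, 95% confidence interval -2.18 to 1.58, adjusted p = 0.942). That interval runs from 0.22 to 2.98 as a fold. The widest negative estimate was that of MYL3, at -0.58 ± 0.90 (adjusted p = 0.876), and ATP2A2 followed at -0.49 ± 0.73 (adjusted p = 0.868). Each difference was smaller than its own standard error. The sign of several estimates rested on single animals: without old replicate 6 MYH7 stood at 0.12, MYL2 at 0.24, TNNC1 at 0.13 and TNNT1 at 0.30. Without young replicate 4, MYL2, TNNC1 and TNNT1 were again above 0 (0.073, 0.097 and 0.15), as they were without young replicate 5 (0.040, 0.11 and 0.16), and MYH7 stood at -0.013 and -0.017.

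In old against middle-aged muscle all 10 log2 fold changes were below 0, from -0.79 to -0.01 with a median of -0.60, beside 0.01 over all probes. ATP2A2 differed by -0.78 ± 0.73 (interval -2.30 to 0.73, adjusted p = 0.618), MYL3 by -0.77 ± 0.90 (adjusted p = 0.709) and MYH7 by -0.24 ± 0.90 (adjusted p = 0.922). These probes share animals and move together, so their common sign is not 10 independent observations. Centred on the array median without division by the SD, 3 of the 8 genes were above 0 and MYH7 was at 0.25.

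In middle-aged against young muscle 8 of the 10 were above 0, from -0.11 to 0.43 with a median of 0.18, beside -0.01 over all probes. TNNC1 differed by 0.43 ± 0.84 (interval -1.32 to 2.18, adjusted p = 0.892) and MYH7 by -0.06 ± 0.90 (adjusted p = 0.990). This direction depended on the scaling: without division by the SD 2 of the 8 genes were above 0, against 6 with it. MYOZ2 had by far the tightest interval of the group, with 0.08 ± 0.11 here and 0.07 ± 0.11 in old against young muscle (adjusted p = 0.841 and 0.877). The 3 comparisons share animals.

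**Figure D3:**
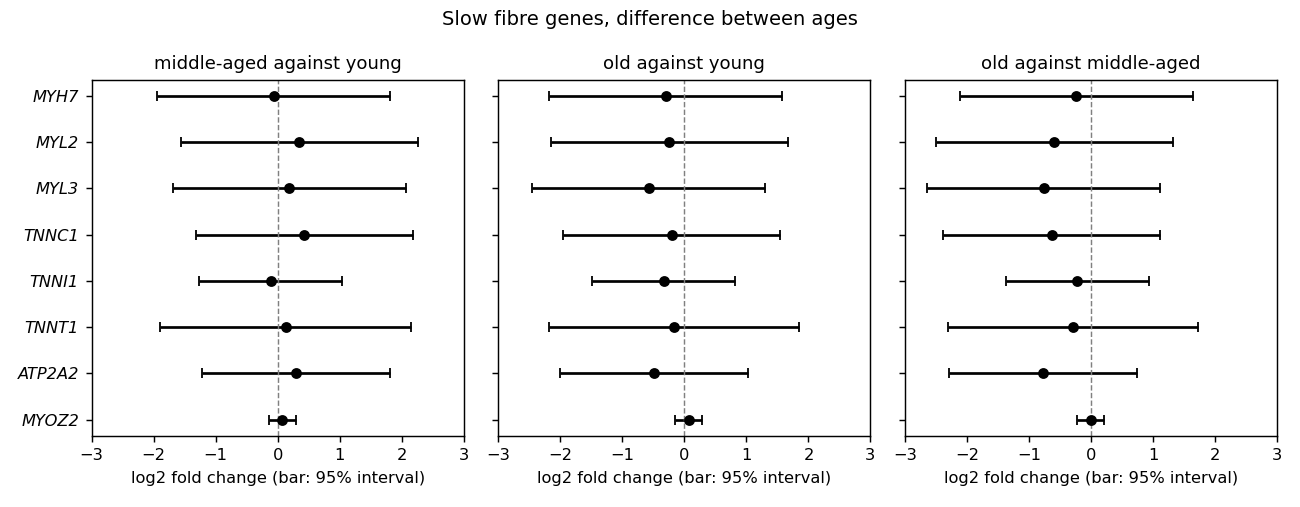
Log2 fold change (points) with its 95% confidence interval (bars) from limma for the brightest probe of each of the 8 slow fibre genes in the 3 comparisons. Every interval crosses 0, and for MYH7 in old against young muscle it runs from -2.18 to 1.58.

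Since a slow isoform replaces a fast one in a fibre, each slow gene was also set against its fast counterpart within the same animal. Of 10 such pairs, 8 had a tested probe for both genes, and the within-animal difference was compared between ages in 24 exact permutation tests (two-sided, over all splits of the 12 animals of a comparison). None passed after Benjamini-Hochberg adjustment over the 24, 0 had an unadjusted p under 0.05, and the smallest unadjusted p was 0.268. MYH7 minus MYH2 differed by -0.61 between old and young muscle (exact p = 0.362) and MYH7 minus MYH1 by -0.66 (exact p = 0.476). ATP2A2 minus ATP2A1, the slow against the fast calcium pump, gave the smallest p, with -1.11 between old and middle-aged muscle (exact p = 0.268), and 0.71 between middle-aged and young muscle (exact p = 0.485). The troponin pairs differed by less, with TNNT1 minus TNNT3 at -0.05 and TNNC1 minus TNNC2 at -0.14 between old and young muscle (exact p = 0.968 and 0.853). Apart from MYOZ2 minus MYOZ1, SDs between animals of 1 age were 1.10 to 1.92 for the slow and 0.27 to 0.56 for the fast genes. These differences therefore mostly followed the slow gene and largely repeat the tests above. TNNI1 and MYOZ2 were not detected on some arrays.

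The slow fibre genes rose and fell together from animal to animal. MYH7 was set against each other tested slow gene and 9 fast genes over the 18 animals, 16 relations in all. The 6 relations with MYL2, MYL3, TNNC1, TNNI1, TNNT1 and ATP2A2 passed, with Pearson r of 0.927 to 0.994 and Spearman rho of 0.936 to 0.994 (permutation p = 1e-05 for each, the smallest that 100000 permutations can give, adjusted p = 2.67e-05). TNNT1 was the closest, with r = 0.994, and TNNI1, dim in several animals, the loosest, with r = 0.927. Without the 2 animals farthest from the MYH7 median (middle-aged replicates 1 and 4) these r were 0.917 to 0.992. Within single ages they were 0.916 to 0.999. The relations therefore did not rest on the differences between ages or on these 2 animals.

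MYOZ2 had r = -0.40 and rho = -0.46 with MYH7 (permutation p = 0.105 and 0.0572, adjusted p = 0.209 and 0.102), which did not pass. It was dim (intensities of 80 to 152) and detected on 12 of 18 arrays, so little can be read from its direction. Its r was -0.29 without the 2 farthest animals, and -0.57, -0.66 and -0.35 within young, middle-aged and old animals. Between all pairs of the 7 other genes, r over the 18 animals was 0.899 to 0.994. After subtraction of the age means, MYL3 had the highest r with the mean of the other members (0.996). TNNI1 had the lowest of the 7 (0.935), and MYOZ2 stood at -0.39.

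**Figure D4:**
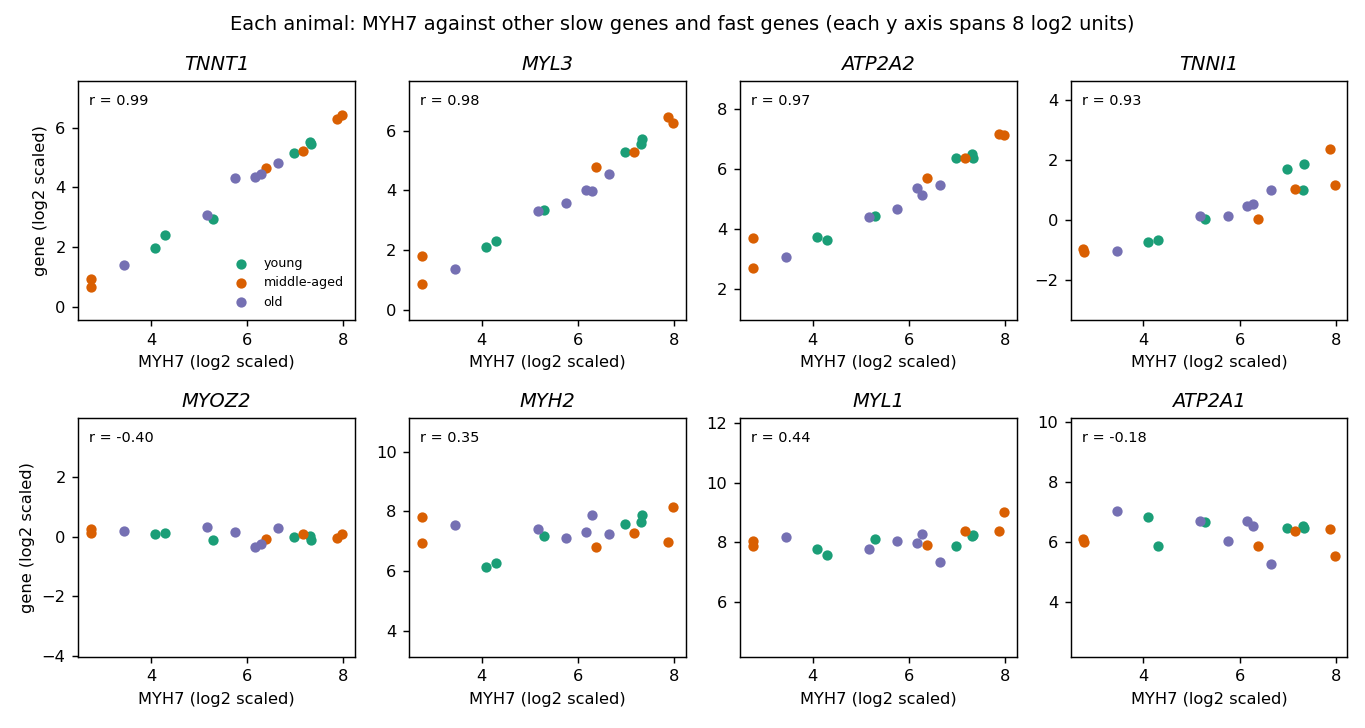
Level of 8 genes (y axis, log2 scaled) against MYH7 (x axis, log2 scaled) in the 18 animals, coloured by age, each y axis spanning 8 log2 units. TNNT1, MYL3, ATP2A2 and TNNI1 lie close to a line (r of 0.927 to 0.994), while MYOZ2 and the fast genes MYH2, MYL1 and ATP2A1 stay nearly level (r of -0.40 to 0.44).

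The agreement held for single animals. Of the 7 genes, young replicate 3 was the lowest young animal for 7 and old replicate 6 the lowest old animal for 7. Middle-aged replicate 4 was the lowest of its age for 4 genes and replicate 1 for the other 3. At the upper end, middle-aged replicate 2 and old replicate 5 were the highest of their ages for 7 genes each, and young replicate 4 for 6. Young replicates 2, 3 and 6 were the 3 lowest young animals for every one of the 7 genes. Ranks are of intensity, and these animals were singled out after their values were seen. On the log2 scale used for the tests some ranks changed. Middle-aged replicate 6 was then the highest of its age for MYH7, MYL2 and TNNT1, and middle-aged replicate 1 the lowest for MYH7. Young replicate 5 was the highest of its age for TNNC1, TNNT1 and ATP2A2, and young replicate 6 the lowest for ATP2A2.

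None of the 9 relations of MYH7 with a fast gene passed by Pearson r (-0.18 to 0.44, adjusted p = 0.159 to 0.482, 0 with an unadjusted p under 0.05). ATP2A1, the fast calcium pump, had r = -0.18 (permutation p = 0.482, rho = -0.26) and was the 1 of the 9 below 0 on this scale. With quantile normalization and neqc TNNI2 (-0.19 with both), TNNT3 (-0.22 with both) and TPM1 (-0.45 and -0.46) were below 0 as well, and none of the 9 passed. MYL1, the fast essential light chain, had r = 0.44 (permutation p = 0.0697) and rho = 0.55, and the rho alone passed (permutation p = 0.020, adjusted p = 0.0458). Without old replicate 5 its r was 0.59 and passed (adjusted p = 0.0262), while with quantile normalization and neqc it was 0.16 and 0.17. MYH2, the heavy chain of fast oxidative fibres, had r = 0.35 (permutation p = 0.156), with 0.97 within young, 0.06 within middle-aged and -0.15 within old animals. On this scale the r of 9 of 9 fast genes was above 0 in young animals (0.086 to 0.97), of 8 of 9 in middle-aged animals and of 0 of 9 in old animals (-0.68 to -0.15). These signs depended on the scaling: the counts above 0 were 4, 3 and 3 with quantile normalization and with neqc, and 8, 2 and 7 by median centring without division by the SD. MYH4, a fast heavy chain outside the 9 that is named here after its values were seen, had an r of -0.41 with MYH7 over the 18 animals, given without a test. These within-age values rest on 6 animals each, the fast genes share arrays, and the difference between ages was not tested.

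**Figure D5:**
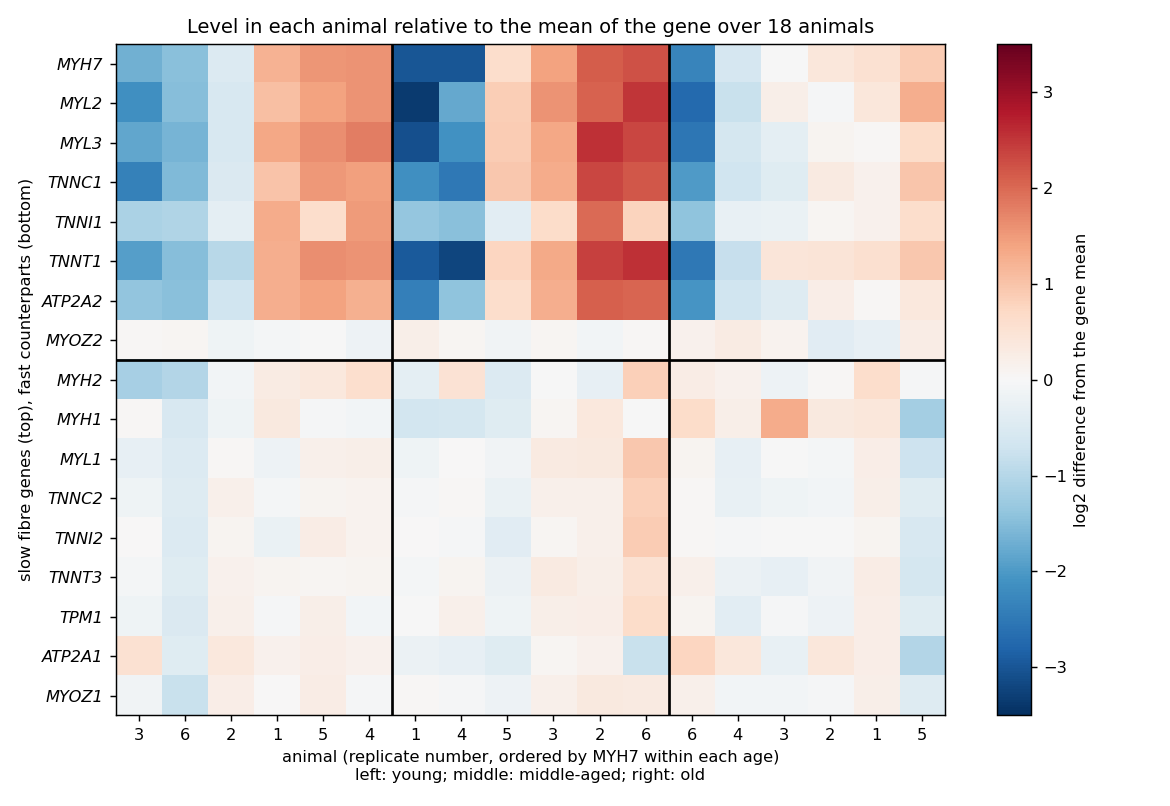
Log2 level of the 8 slow fibre genes (top) and 9 fast counterparts (bottom) in each animal, relative to the mean level of that gene, with animals ordered by MYH7 within young (left), middle-aged (middle) and old (right). The 7 slow genes other than MYOZ2 change from blue (low) to red (high) together within each age, and the fast genes stay near 0 except in single animals.

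Among 8581 other genes, likeness to the slow fibre genes was measured as the Pearson r with the mean of the members after subtraction of the age means, given as a description over 18 animals that share arrays. The median over these genes was -0.05, and 19 had an r over 0.7. The most alike was TPM3P9, a pseudogene of the slow tropomyosin TPM3, at 0.979, with intensities of 142 to 2463. Copies of TPM3 are nearly identical, and which transcript this human probe bound was not tested. RNF113A followed at 0.858, then CFL2, the muscle form of the actin-severing protein cofilin, at 0.841, XPO4, a nuclear exportin, at 0.838, and MYLK3, a kinase of the MYL2 light chain known from heart, at 0.822. MYLK3 was dim (intensities of 51 to 271) and was detected in 3 young, 3 middle-aged and 1 old animal. MSH4, a meiotic recombination protein, was next at 0.786 over a narrow range of intensities (80 to 117). The least alike were ADPGK (-0.823), GARNL3 (-0.778), APMAP (-0.773), the adhesion receptor CD44 (-0.770), VHL (-0.763) and MATR3 (-0.752), all 6 highest in young replicate 6.

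Other genes of slow and oxidative fibres were followed from a list. Of 12 listed, 8 were tested, and 0 were called in any comparison. Called over all probes were 0.0987% in old against young, 0.803% in old against middle-aged and 0.0211% in middle-aged against young muscle. These shares also apply to the lists below. In old against young muscle 5 of the 8 were above 0 with a median of 0.13, in old against middle-aged muscle 4 of the 8 with a median of -0.09 and in middle-aged against young muscle 8 of the 8 with a median of 0.14. Over all tested genes 48.45%, 54.7% and 43.29% were above 0 in these comparisons. Values of middle-aged animals are stretched by division by the array SD, and this list is given on that scale alone. MYL6B, a slow essential light chain chosen here after its value was seen, had an r of 0.740 with the mean of the members. CASQ2, the calsequestrin of slow and cardiac muscle, had an r of 0.623. It was higher in middle-aged than in young muscle by 1.15 ± 0.36 and lower in old than in middle-aged muscle by -0.97 ± 0.36, which did not pass (adjusted p = 0.278 and 0.169). CA3, the carbonic anhydrase typical of slow fibres, had an r of -0.03 and differed by 1.08 ± 0.30 between old and young muscle (adjusted p = 0.157). Its intensities were 105 to 650 in old and 77 to 123 in young animals. CA3 was detected in 3 of 6 young, 3 of 6 middle-aged and 5 of 6 old animals, so many of these values lay at background.

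Of 28 listed regulators of fibre type, 19 were tested and 0 were called in any comparison, with medians of -0.0020, 0.04 and -0.01 in old against young, old against middle-aged and middle-aged against young muscle. ESRRA, an oestrogen-related receptor of oxidative metabolism, had the smallest p among them, at -0.40 ± 0.20 in old against middle-aged muscle (adjusted p = 0.295), with SOX6, a repressor of slow fibre genes, at 0.36 ± 0.17 (adjusted p = 0.298). The r with the mean of the members was 0.447 for ESRRA and -0.12 for SOX6. Of 15 fast contractile genes, 14 were tested and 0 were called. MYH4, the heavy chain of the fastest fibres, chosen after its value was seen, ranked 3 among all probes in SD between animals of 1 age (1.82), spanned 270 to 18232 in young muscle alone, and had an r of -0.47 with the mean of the members.

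Markers of other cell types differed between animals as well, and their part in the spread of the slow fibre genes was not tested. Fibroblast and matrix markers, of which 5 of 8 were tested, had r = -0.50 and rho = -0.45 with MYH7 over the 18 animals (permutation p = 0.0346 and 0.0613, adjusted p = 0.249 and 0.231 over 12 relations with marker lists and array measures). Without the 2 farthest animals this r was -0.61, and within young, middle-aged and old animals -0.79, -0.44 and -0.63. The mean level of the list, relative to each gene's mean, lay between -0.46 and 1.57 among young animals, -1.06 and 0.29 among middle-aged ones and -0.64 and 0.47 among old ones. The highest was young replicate 6, low in slow fibre genes, whose skeletal muscle markers stood at -0.80, the lowest of all 18 animals. FN1 was detected on 0 arrays and COL3A1 on 3, while DCN reached 20267.

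Endothelial (r = -0.46) and macrophage markers (r = -0.45) did not pass either (permutation p = 0.0521 and 0.0634, adjusted p = 0.249 for both), nor did any other of the 12 relations. Their rho was -0.41 and -0.56 (permutation p = 0.0887 and 0.0167, adjusted p = 0.231 and 0.200). Within young, middle-aged and old animals r was -0.53, -0.66 and 0.22 for endothelial and -0.81, -0.52 and 0.45 for macrophage markers. Median intensity of the array had an r of -0.37 with MYH7 (permutation p = 0.128), with -0.58, -0.26 and -0.44 within young, middle-aged and old animals. The SD of log2 intensity of the array had an r of -0.27 with MYH7 and the share of probes detected -0.33 (permutation p = 0.290 and 0.177). Within old animals these 2 were at 0.64 and 0.44. Erythrocyte markers were the 1 marker list with called genes: of 4 tested, HBB, HBA1 and HBA2 rose by 3.58, 4.16 and 3.68 in old against young muscle (adjusted p = 0.0360, 0.0378 and 0.0378 by limma), and ALAS2 stood at 1.15 (adjusted p = 0.247). Of 29 alternatives, the call was lost in 10 for HBB, 12 for HBA1 and 12 for HBA2 (adjusted p of up to 0.132), among them leaving out old replicate 1, 2 or 6 or young replicate 1, 2, 3 or 5 in turn. The r of the list with MYH7 was -0.03. Without young replicate 6 and old replicates 1 and 2, 3 animals set apart in earlier results of these data, 0 of the 10 slow fibre probes were called in any comparison, and the log2 fold changes of old against young muscle ran from -1.19 for MYL3 to 0.27 for MYOZ2. MYH7 stood at -0.94 there (adjusted p = 0.721), and its r with TNNT1 over those 15 animals was 0.994.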

How the data were processed

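RNA of 18 vastus lateralis biopsies was hybridised to Sentrix Human HT-12 arrays, 1 per animal. The deposited intensities are linear and were read with GenomeStudio 2011.1 without normalization. Whether a background was subtracted is not given in the sources used here, and 0 intensities were at or below 0. The deposited detection p-value compares each probe with negative controls. For each array the authors took the natural log of every intensity, subtracted the array's average and divided by its standard deviation, and deposited the result as a Z score. Probe symbols came from GEO's platform annotation, in which 30113 of 47323 probes had 1 symbol, 8 several and 17202 none.

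Z scores were recomputed from the intensities (largest difference from the deposited ones 0.018) and rescaled by 1.19, the average over arrays of the SD of log2 intensity. Probes with detection p under 0.05 on at least 6 arrays (14188) entered limma 3.58.1 (R 4.3.3; lmFit and eBayes with a trend), with the 3 ages in 1 fit, Benjamini-Hochberg adjustment over all probes and a threshold of 0.05. The fit was tested on simulated data first. Isoform pairs were tested by exact permutation, and relations over animals by 100000 permutations (Python 3.11.15, numpy 2.4.6, pandas 2.3.3, matplotlib 3.10.9), with the brightest detected probe of each gene. Precision is limited by the number of arrays.

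The members and lists were chosen with earlier results of these data known. Named were all members, the fast genes of the pairs, of each pathway list the genes past the test or else the 2 with the smallest p, and the 6 genes most and 6 least like the members. Marker lists are given by counts and list levels.

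Replicate numbers come from the labels and name different animals at each age. Same-numbered animals had correlations of their deviations from the age means of -0.26 to 0.21, with 3 of 18 over 0.1, so the numbers were not taken as pairs. Alternatives were 3 other normalizations, neqc with an offset of 16, other filters and probe rules, array weights, the replicate block, fits of 2 ages or 15 animals, the test of the study's methods and leaving out each animal.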

Additional observations from a re-analysis of the deposited data

Results flagged for a closer look

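Of 57 sets of 6 animals (10 slow fibre and 9 fast probes at 3 ages), 3 held 1 animal far from the other 5 on the log2 scale, where chance flags about 5% of sets. None was a slow fibre probe. TNNC2, the fast troponin C, was at 8.40 in middle-aged replicate 6 and at 7.33 to 7.72 in the other middle-aged animals. That array had the smallest SD of log2 intensity (1.03), and by intensity its TNNC2 value, 13761, was the lowest of all 18. TNNI2, the fast troponin I, stood lowest in old replicate 5, at 7.03, while its 5 age-mates lay between 7.54 and 7.69. The same animal had the highest slow fibre intensities of its age and the largest array SD (1.27). MYOZ1, the fast fibre calsarcin, was at 6.76 in young replicate 6 and at 7.41 to 7.80 in the other young animals. None of the 3 passed Dixon's critical value with quantile normalization, neqc or median centring. As a share of the range, the gap of old replicate 5 in TNNI2 went from 0.786 to 0.239 with quantile normalization and 0.237 with neqc, and by median centring old replicate 6 was the lowest instead. By intensity old replicate 5 was not the lowest old animal in TNNI2 either (20946, against 19723 in old replicate 1). The gap of young replicate 6 in MYOZ1 went from 0.629 to 0.560, 0.559 and 0.615 with quantile normalization, neqc and median centring. That of middle-aged replicate 6 in TNNC2 went from 0.629 to 0.570 and 0.569 with quantile normalization and neqc, and by median centring that animal was the lowest of its age.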

How the results depend on the processing

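The counts of called slow fibre probes stayed at 0 in all 3 comparisons under every alternative run, the count of isoform pairs past the test at 0, and the count of relations with MYH7 at 6, except 7 without old replicate 5, where MYL1 was added. The methods' t-test at the study's thresholds called 0 of the 10 slow fibre probes (smallest unadjusted p = 0.277) and 4.43%, 5.89% and 4.64% of all probes in old against young, old against middle-aged and middle-aged against young muscle. With the replicate block the slow fibre counts were also 0, and the smallest adjusted p among the probes was 0.868, 0.650 and 0.831. In that fit all calls went from 14 to 5, 114 to 37 and 3 to 1, 1 of the 18 animals correlated best with its own number, and the block changed the call of none of the slow fibre fold changes. It was not run for the isoform pairs and the relations. Over all alternatives except leaving out 1 animal, calls over all probes ran from 2 to 83, 7 to 306 and 1 to 28, and leaving out 1 animal they ran from 1 to 31, 14 to 230 and 1 to 9.

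None of 669 alternative log2 fold changes passed the test, and 594 kept their sign. The sign turned in the other 75, in 15 of 24 combinations of gene and comparison, and the cause was not tested. Centred on the median without division by the SD, middle-aged against young was -0.10 for MYL2, -0.16 for MYL3, -0.22 for TNNT1 and -0.12 for ATP2A2, and old against middle-aged was 0.25 for MYH7, 0.083 for TNNT1 and 0.029 for MYOZ2. With array weights, middle-aged against young was -0.073 for MYL2, -0.29 for MYL3, -0.033 for TNNC1, -0.42 for TNNT1 and -0.093 for ATP2A2, and old against middle-aged was 0.12 for MYH7 and 0.10 for TNNT1. With neqc, middle-aged against young was 0.0056 for TNNI1 and -0.043 for TNNT1, and old against middle-aged was 0.0080 for MYH7 and 0.037 for MYOZ2. With 15 animals, middle-aged against young was -0.16 for MYL3, -0.17 for TNNT1 and -0.014 for ATP2A2, and old against middle-aged was 0.17 for MYOZ2. With quantile normalization, old against middle-aged was 0.0063 for MYOZ2. Leaving out 1 animal, middle-aged against young ran from -0.49 to 0.55 for MYH7, -0.090 to 1.08 for MYL2, -0.26 to 0.87 for MYL3, -0.029 to 0.998 for TNNC1, -0.50 to 0.19 for TNNI1, -0.35 to 0.80 for TNNT1 and -0.051 to 0.85 for ATP2A2. Old against middle-aged ran from -0.85 to 0.19 for MYH7, -0.53 to 0.17 for TNNI1, -0.96 to 0.19 for TNNT1 and -0.060 to 0.075 for MYOZ2, and old against young from -0.66 to 0.12 for MYH7, -0.67 to 0.24 for MYL2, -0.66 to 0.13 for TNNC1 and -0.55 to 0.30 for TNNT1.

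The precision is limited by 6 animals per age, whose values differ by SDs of 1.10 to 1.92 log2 units in the 7 tested slow fibre genes other than MYOZ2 (0.19). It is also limited by signal over background for TNNI1, MYOZ2 and MYH7B.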
